A study of Homo sapiens with 43 samples.

Results

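Untreated HepG2 cells were compared with untreated GM12878 cells. HepG2 is an established line from a liver tumour, and GM12878 is a B lymphoblastoid line, made by transforming B cells with Epstein-Barr virus. The comparison used 2 HepG2 libraries collected after 24 h in DMSO and 2 GM12878 libraries collected after 6 h in DMSO, which are 4 of the 43 RNA-seq libraries of the series. They were chosen by line, vehicle and time as given in the sample titles, and by no measured value. The study as a whole addressed the part played by BAF complexes in transcriptional responses to stimuli, with BRM014, an inhibitor of the BAF ATPases, given to both lines. None of the libraries used here received BRM014 or a stimulus, and the labels give no edit or transgene for either line. GM12878 was grown in suspension in RPMI-1640 medium and HepG2, which was passaged with trypsin, in Eagle's minimal essential medium. Line, medium, experiment and time (24 h against 6 h) therefore cannot be told apart. A further 6 untreated GM12878 libraries, namely 2 in PBS at 6 h from the same stimulus panel and 2 each at 1 h and 6 h in DMSO plus a second vehicle from a separate pretreatment experiment, show how far the GM12878 values varied.

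BAF complexes are chromatin remodellers that use ATP to move or evict nucleosomes. Each holds a single ATPase, SMARCA4 (BRG1) or SMARCA2 (BRM), and its other subunits assign it to the canonical BAF, PBAF or ncBAF form. Remodellers act together with the transcription factors that define a cell type: in hepatocytes the HNF, FOXA and C/EBP families, and in B cells PAX5, EBF1, the Ikaros family and the ETS factors. Hepatocytes secrete most plasma proteins and carry out bile acid, urea, glucose and drug metabolism, while B cells carry an antigen receptor and present antigen on MHC class II.

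The HepG2 libraries held 9792630 and 17019403 counts and the GM12878 libraries 21966404 and 19981411. Mitochondrial transcripts took 4.66% to 6.08% of the counts in these 4 libraries. Of 15712 genes tested with edgeR, 2680 (17.1%) were called higher in HepG2 and 2831 (18.0%) higher in GM12878, so 35.1% were called in either direction. With a 2-fold threshold 52.9% were called, and 82.6% passed the adjusted p at any size, so only large differences are read here. A call needed a fitted difference over 4-fold and a Benjamini-Hochberg adjusted p under 0.05 over all genes tested. Differences are given as log2 of HepG2 minus GM12878 from the fitted counts, with the standard error, so positive values mean higher in HepG2. Levels are given as TPM, the relative abundance of transcripts scaled for gene length, which sums to the same total in every library. The labels do not say that replicate libraries came from separate cultures, so p-values measure only the spread between these libraries, which may be technical. The genes called higher in HepG2 held 26.9% and 28.0% of the HepG2 counts against 1.42% and 1.43% of the GM12878 counts. Those called higher in GM12878 held 22.1% and 22.48% of the GM12878 counts against 1.32% and 1.30% in HepG2. Of 19831 protein-coding genes, 9853 reached 1 TPM on average in both lines, 1606 in HepG2 only, 1352 in GM12878 only and 7020 in neither.

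Between separate experiments on GM12878, far fewer genes were called than between the lines. These comparisons hold GM12878 alone at 6 h or less, so they do not cover the HepG2 experiment, its medium or 24 h. The sample titles give vehicle and time and name no experiment. The panel and pretreatment libraries also differed in vehicle, which cannot be told apart from the experiment. Between the panel DMSO libraries and the DMSO plus vehicle libraries of the pretreatment experiment, both GM12878 at 6 h, 14 of 14487 genes (0.0966%) were called higher in the panel and 12 (0.0828%) lower by the same rule. Of those 26 genes (0.179%), 11 were also called between the lines, beside 35.1% of all genes tested there. Some of the 26, such as RPL35P5 and RPL21P119, were not tested between the lines. Between 6 h and 1 h within the pretreatment experiment, 4 of 14052 genes (0.0285%) were called higher at 6 h and 3 (0.0213%) higher at 1 h, together 0.0498%. These small counts moved with single libraries. Between experiments they were 80 and 16 without replicate 2 of the 6 h pretreatment libraries, 45 and 22 without replicate 1, and 2 and 9 without replicate 1 of the panel libraries. Between times they were 21 and 39 without replicate 2 at 6 h, 12 and 23 without replicate 1 at 6 h, and 0 and 1 without either library at 1 h. Of the list genes described below, 326 could be tested between the experiments and none passed a 2-fold difference, although 33 passed the adjusted p alone, beside 9.69% of all genes (edgeR). The largest of those was IL1R1 with a log2 difference of 0.59. Between 6 h and 1 h, 1 of 322 list genes passed the adjusted p alone, beside 0.534% of all genes. The histogram of differences shows both spreads.

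**Figure D1:**
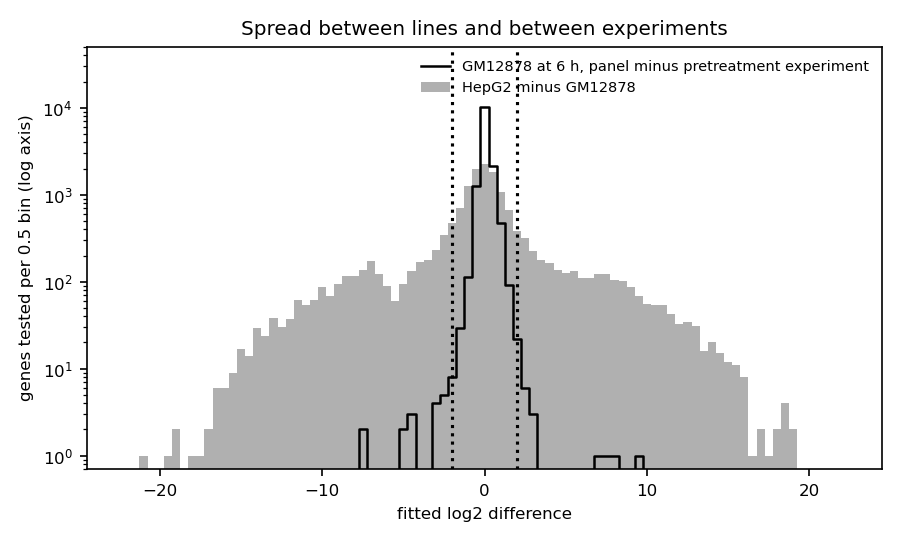
Fitted log2 differences of all genes tested (x axis) as numbers of genes per bin (y axis, log scale), for HepG2 minus GM12878 (grey bars) and for GM12878 at 6 h in the panel minus the pretreatment experiment (black line). Dotted lines mark 4-fold; 5511 genes were called beyond them between the lines and 26 between the experiments.

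The marker genes matched the labels. ALB, serum albumin (ENSG00000163631.16, chr4:73397114-73421482 on hg38), stood at 7482 and 8446.5 TPM in HepG2 and at 0.45 and 0.10 TPM in GM12878. Its log2 difference was 15.01 ± 0.17 (SE, n = 2 and 2 libraries, edgeR adjusted p = 3.5e-17). It rests on 8 and 2 counts in GM12878, and the log2 difference was 16.18 without GM12878 replicate 1, 14.40 without replicate 2 and 17.80 with the PBS libraries as the GM12878 group. CD79B, a signalling chain of the B cell receptor (ENSG00000007312.12, chr17:63928738-63932336), stood at 0.14 and 0 TPM in HepG2 and at 89.1 and 85.2 TPM in GM12878. HepG2 had 1 count of CD79B in both libraries together against 2572 in GM12878, a ratio of 1562 in favour of GM12878 with a 95% counting interval of 280 to 61737. Across all 8 untreated GM12878 libraries CD79B lay between 81.6 and 106 TPM. In bulk RNA, fewer cells of a type and less RNA per cell cannot be told apart.

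Genes for proteins that hepatocytes secrete were high in HepG2. Of 40 listed, 39 were tested and 35 were called higher in HepG2, beside the 17.1% of all genes. Their median log2 difference was 13.67 against -0.07 over all genes, and 11.86 with genes at 0 counts set to their bound. A gene that reaches the test only through the line in which it is high has to differ. The counts and medians of this list and of every list below therefore describe the list and do not test it. APOA2, an apolipoprotein of high-density lipoprotein, had the highest level of any protein-coding gene called in HepG2, at 21481 and 19666 TPM. It had 0 counts in GM12878, which makes it at least 58813-fold higher in HepG2 (with a floor of 3 counts over the group, used for all such bounds). SERPINA1, the main inhibitor of neutrophil elastase in plasma, stood at 7133 and 8053 TPM against 1.74 and 1.32, and TF, transferrin, at 6644 and 7601 against 0.07 and 0.32. AHSG, fetuin A, reached 2940 and 3243 TPM and AFP, the fetal counterpart of albumin, 2811 and 3020 TPM, both with 0 counts in GM12878. APOA1 reached 2346 and 2096 TPM. The fibrinogen chains FGA and FGG lay between 1476 and 1622 TPM in HepG2 with 0 counts in GM12878. The genes outside the list that ranked among the 10 most abundant called in HepG2 were FN1, fibronectin, at 4387 and 4589 TPM, DHRS2, a short-chain dehydrogenase, at 3161 and 3106, LYZ, described below, and FTL. FTL, the ferritin light chain, differed by only 2.00 ± 0.07 on the log2 scale, and fell under 4-fold with 4 of the other scalings, filters or fits, with PBS libraries as the GM12878 group, and without HepG2 replicate 1 or GM12878 replicate 1.

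Not every secreted protein gene followed. ITIH4, an inter-alpha-trypsin inhibitor chain, was called higher in GM12878, at 0.46 and 0.14 TPM against 1.31 and 1.54 (log2 -2.73 ± 0.55, edgeR adjusted p = 0.00039). Its level was near 1 TPM even in the higher line. PLG, plasminogen, had a log2 difference of -1.67 and stood under 1 TPM in HepG2. The clotting factor gene F9 had 0 counts in all 4 libraries, and F12 lay between 1.98 and 2.33 TPM in all 4. A1BG was not called either, at 9.09 and 9.61 TPM against 18.6 and 21.98, and its fitted counts pointed the other way (log2 1.14), so its sign depends on the scale. A1BG, PLG, F9 and F12 were singled out after their values were seen.

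Promoters of these genes are shown because the list moved together and because CEBPA, whose family binds the motif marked in them, is described below. Of the 40 genes, 31 had an entry in the RefSeq promoter table (GRCh38.p14), which spans 250 bases before to 50 after each start. The C/EBP motif TTGCNNAA, searched on both strands, was present in 8 of those 31 (25.8%) and in 10.6% of all 27305 promoters in the table. It was also present in 5 of 26 promoters of the liver metabolism list (19.2%), 1 of 17 of the liver factors (5.88%) and 4 of 26 of the B cell surface list (15.4%). The HNF4 motif CAAAGTCCA was present in 2 of 31 against 0.359%. The FOXA motif TGTTTAC was present in 1 of 31 against 3.41%. A match is a description of letters and no evidence of binding. The 200 bases before the start are given 5′ to 3′ on the coding strand for 2 promoters that hold it, with matches on either strand in capitals: ALB at chr4:73404087-73404286 and FGB at chr4:154562780-154562979, both on the plus strand.
ALB: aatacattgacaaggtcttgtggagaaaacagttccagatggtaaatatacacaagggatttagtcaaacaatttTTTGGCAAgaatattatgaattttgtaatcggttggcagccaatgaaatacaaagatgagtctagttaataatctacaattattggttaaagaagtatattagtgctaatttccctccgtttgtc
FGB: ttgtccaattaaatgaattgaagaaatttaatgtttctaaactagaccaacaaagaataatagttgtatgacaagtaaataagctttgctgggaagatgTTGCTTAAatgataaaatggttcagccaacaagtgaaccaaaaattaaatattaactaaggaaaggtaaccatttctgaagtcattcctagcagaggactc

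**Figure D2:**
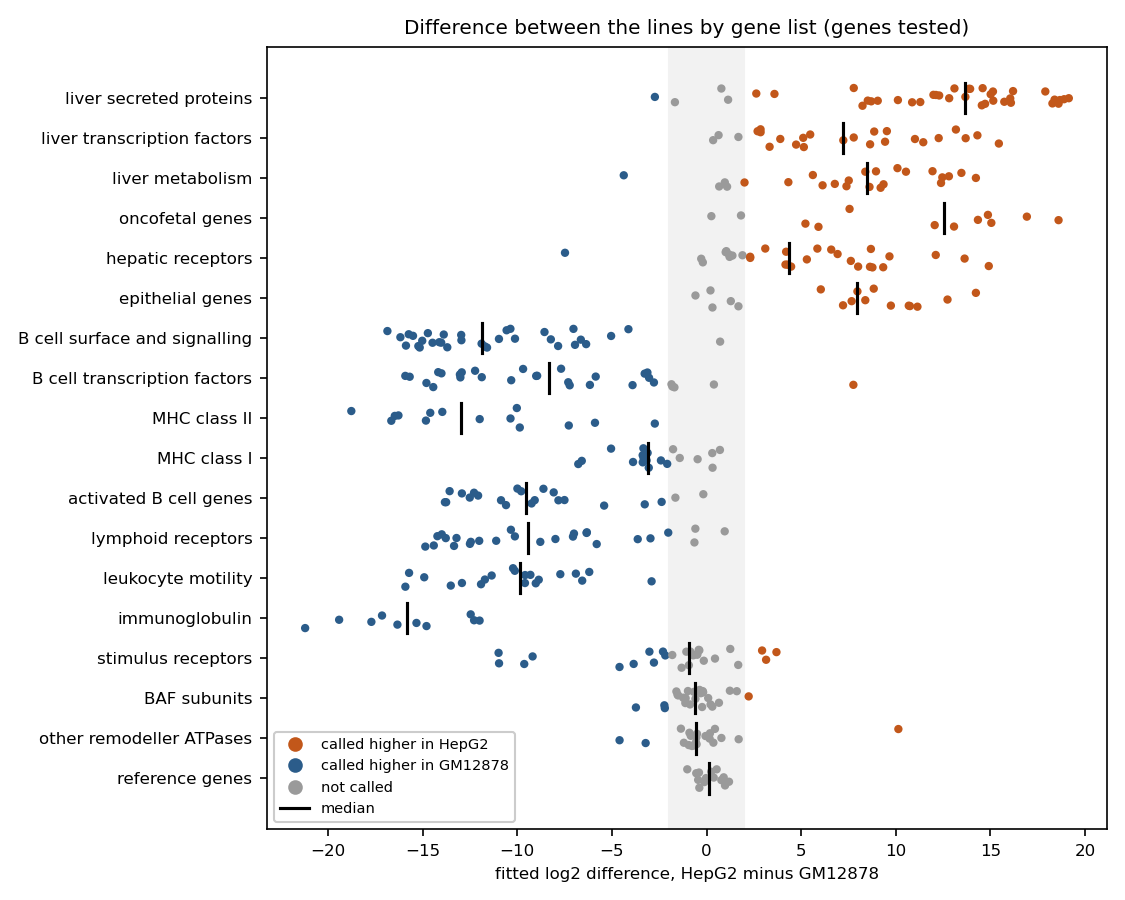
Fitted log2 difference of each tested list gene, HepG2 minus GM12878 (x axis), by gene list (rows). Orange and blue points were called higher in HepG2 and GM12878, grey points were not called, black bars are list medians, and the shaded band is within 4-fold. The liver and B cell lists lie on opposite sides, while BAF subunits and reference genes lie mostly within the band.

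Liver transcription factors were present in HepG2, and 19 of the 26 listed stood under 1 TPM in GM12878. Of the list, 25 were tested and 22 were called higher in HepG2, beside 17.1% of all genes. None was called lower (median log2 7.23, or 5.48 with bounds). HNF4A, the nuclear receptor at the centre of the hepatocyte network, stood at 95.2 and 112 TPM in HepG2 with 0 counts in GM12878 (at least 4683-fold higher). The pioneer factors FOXA1, FOXA2 and FOXA3 reached 41.7 and 47.4, 40.7 and 39.2, and 27.6 and 27.6 TPM. FOXA2 had 0 counts in GM12878, FOXA1 had 1 count and FOXA3 had 7. CEBPA, an activator of metabolic genes, reached 40.1 and 35.4 TPM. NR0B2 (SHP), which represses bile acid synthesis, had the highest level of the list at 214 and 193 TPM, with 0 counts in GM12878.

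Developmental and endodermal factors were also present in HepG2. TBX3 stood at 36.3 and 38.1 TPM, PROX1 at 12.3 and 15.7, ONECUT1 (HNF6) at 1.90 and 4.50, ONECUT2 at 3.02 and 2.88 and GATA6 at 1.71 and 1.83, and none exceeded 0.18 TPM in GM12878. Among the nuclear receptors, NR1H4, the bile acid receptor FXR, stood at 6.89 and 5.99 TPM, NR1I2, the xenobiotic receptor PXR, at 12.7 and 10.9, NR2F1 at 23.0 and 22.9 and NR5A2 at 0.47 and 0.46. CREB3L3 stood at 5.20 and 5.10 TPM against 0.18 and 0.15. A second set was shared at a lower level by GM12878. HHEX, needed in both liver bud and early B cells, stood at 57.3 and 68.6 TPM against 3.91 and 4.58 (log2 3.90 ± 0.12). GATA4 had a log2 difference of 2.85, HNF4G 2.86, NR2F6 2.70 and NR2F2 3.33, with 0.71 to 5.15 TPM in GM12878. Among the factors not called were RXRA (25.5 and 31.9 against 17.9 and 20.25), the partner of many nuclear receptors, and PPARA (8.97 and 13.8 against 6.78 and 8.25). NR1I3, the receptor CAR, had 3 and 2 counts in HepG2 and GM12878 and was not tested.

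**Figure D3:**
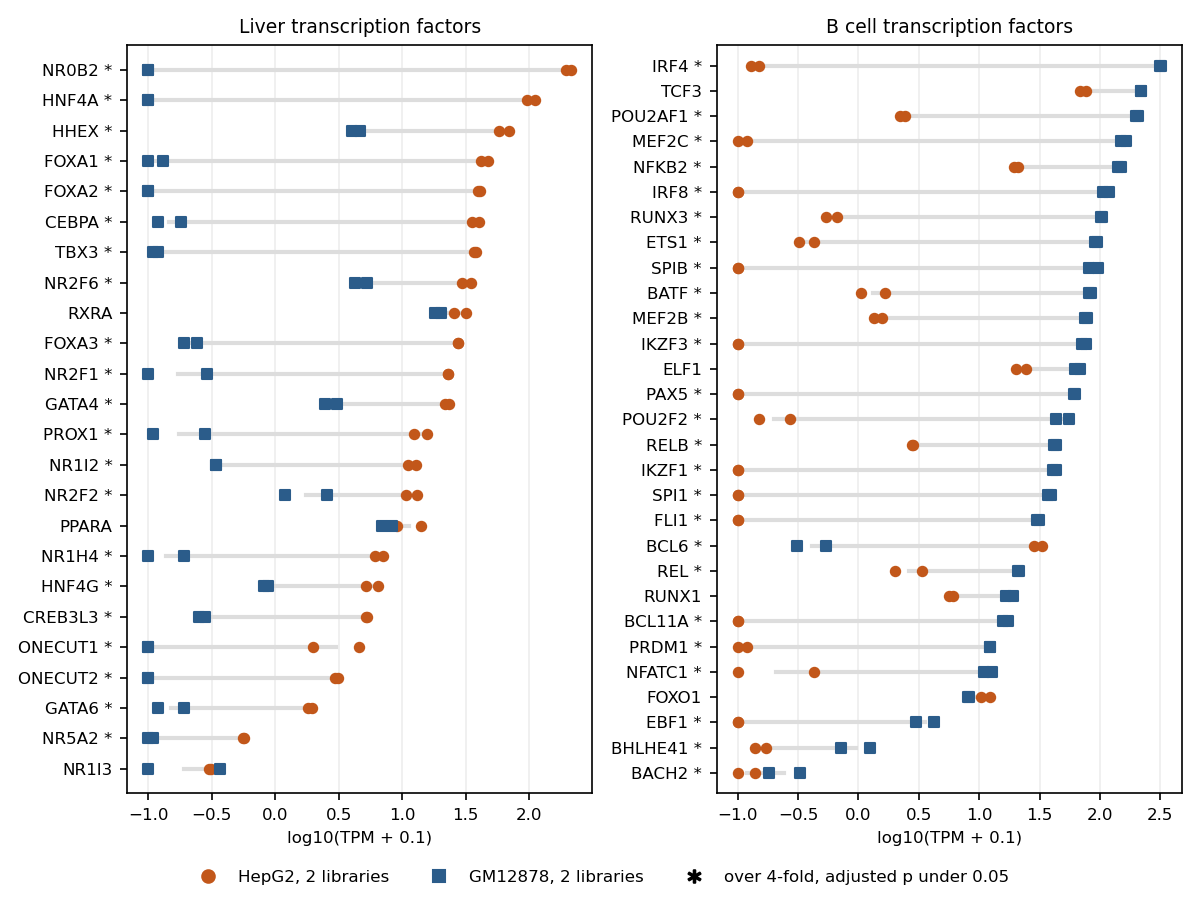
Levels of liver (left) and B cell (right) transcription factors as log10 of TPM + 0.1 (x axis), with 2 HepG2 libraries as circles and 2 GM12878 libraries as squares; a grey line joins the means of the lines and an asterisk marks a call. Points at -1 are listed at 0. RXRA, PPARA and FOXO1 stand close in both lines, and BCL6 is the B cell factor that is higher in HepG2.

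Metabolic genes of the liver were divided. Of 36 listed, 24 were tested and 12 were not, for lack of counts. Of those tested, 20 were called higher in HepG2 and 1 higher in GM12878, beside 17.1% and 18.0% of all genes. FABP1, the liver fatty acid binding protein, stood at 528 and 509 TPM with 0 counts in GM12878. HPD, an enzyme of tyrosine breakdown, stood at 160 and 165 TPM and CYP27A1, which oxidises cholesterol side chains, at 155 and 162, both at 0.23 TPM or less in GM12878. PYGL, the liver glycogen phosphorylase, stood at 87.1 and 91.4 TPM and ACOX2, of bile acid side chain oxidation, at 44.15 and 49.7. ASS1, a urea cycle enzyme, stood at 36.1 and 43.5 TPM against 0.39 and 0.16. PCK2, the mitochondrial PEP carboxykinase, differed by 2.01 ± 0.08 (149 and 149 TPM against 37.6 and 34.1) and fell under 4-fold with PBS libraries, with library size or upper quartile scaling, without a filter, and without HepG2 replicate 1 or GM12878 replicate 2. CYP2E1, an ethanol-oxidising cytochrome, was called the other way on 1 and 40 counts, a ratio of 24.3 with a 95% counting interval of 4.12 to 983, and stood at 1.67 TPM or less in all 4 libraries. Several enzymes typical of adult hepatocytes were at or near 0 in HepG2, as seen after their values were known. CYP7A1, the rate-limiting enzyme of bile acid synthesis, and OTC, of the urea cycle, had 1 count each over both HepG2 libraries. GYS2, TDO2, CYP1A2, ADH1A and the bile salt exporter ABCB11 had 0. A count of 0 over both HepG2 libraries allows up to 3 counts. ASL, SLC27A5 and NAGS, also named afterwards, were tested and not called, at log2 differences of 0.67, 1.09 and 0.97.

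Fetal liver and carcinoma genes stood high in HepG2. Of 13 listed, 12 were tested and 10 were called higher there, beside 17.1% of all genes, and none lower. GPC3, a glypican of hepatocellular carcinoma, stood at 2310 and 2600 TPM against 0 and 0.10, PEG10, an imprinted gene, at 1591 and 1679 against 21.3 and 21.8 (log2 5.23 ± 0.10), and IGF2, a fetal growth factor, at 506 and 626 against 0 and 0.03. DLK1 stood at 143 and 150 TPM with 0 counts in GM12878. The IGF2 mRNA-binding proteins separated: IGF2BP2 stood at 79.8 and 91.7 TPM with 0 counts in GM12878, IGF2BP1 at 43.1 and 54.4 against 0.23 and 0.50, and IGF2BP3 at 29.2 and 36.6 against 33.25 and 31.85. IGF2BP3 was not called (log2 0.26 ± 0.09), and its values in the lines overlapped. H19 (1.82) was not called and SPINK1 was not tested, both named after their values were seen.

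Of 31 hepatocyte receptors listed, 30 were tested, 21 were called higher in HepG2, 1 higher in GM12878 and 8 in neither. Over all genes the shares were 17.1% higher in HepG2 and 18.0% higher in GM12878. The asialoglycoprotein receptor chains ASGR1 and ASGR2 stood at 421 and 420 TPM and at 265 and 244 TPM, with 1 and 0 counts in GM12878. The growth factor receptors ERBB3 (202 and 238 TPM against 1.52 and 0.49) and FGFR4 (159 and 161 against 0.51 and 0.52) and the Wnt co-receptor LRP5 (232 and 226 against 10.5 and 9.40) were called. So was TGFBR2, the ligand-binding receptor for TGF-beta, at 117 and 144 TPM against 0.25 and 0.37. SCARB1, a receptor for high-density lipoprotein, had a log2 difference of 1.37 and the transferrin receptor TFRC one of -0.19, and neither was called. GHR, the growth hormone receptor, had 0 counts in HepG2 and 55 in GM12878, at least 11.1-fold lower in HepG2, although its level was only 0.44 and 0.39 TPM in GM12878.

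Of 20 epithelial genes listed, 17 were tested and 12 were called higher in HepG2, beside 17.1% of all genes, and none lower. The simple-epithelium keratins KRT8 (885 and 861 TPM) and KRT18 (724 and 713) led, at 1.62 TPM or less in GM12878, followed by KRT19 (158 and 160), the desmosome component DSP (136 and 164) and EPCAM (123 and 149). CDH2, N-cadherin, stood at 62.05 and 78.6 TPM against 0.59 and 0.57. CLDN1, a tight junction protein, stood at 33.1 and 36.7 TPM against 0.08 and 0.24. The catenin JUP was not called (log2 1.69), and CDH1, E-cadherin, singled out after its values were seen, stood at 9.53 and 10.3 TPM against 7.57 and 6.57 (log2 0.31 ± 0.12).

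B cell transcription factors followed GM12878. Of 30 listed, all were tested, 25 were called higher in GM12878 (beside 18.0% of all genes), 1 higher in HepG2 and 4 in neither. PAX5, which holds B cell identity, stood at 61.7 and 61.3 TPM in GM12878 with 0 counts in HepG2 (at least 3307-fold lower in HepG2). The Ikaros factors IKZF1 (40.4 and 42.99 TPM) and IKZF3 (77.0 and 71.3), the ETS factors SPI1 (36.8 and 39.3), SPIB (80.7 and 96.8) and FLI1 (31.36 and 30.02), and BCL11A (15.6 and 17.3) all had 0 counts in HepG2. IRF4, a factor of activated B cells and plasma cells, had the highest level at 319 and 312 TPM against 0.03 and 0.05, and its partner IRF8 stood at 105 and 118 TPM with 0 counts in HepG2. EBF1, which acts with PAX5, was low even in GM12878, at 2.90 and 4.11 TPM with 0 counts in HepG2. The coactivator POU2AF1 (208 and 200 TPM) and its octamer-binding partner POU2F2 (42.9 and 55.5) were not at 0 in HepG2, where POU2AF1 stood at 2.34 and 2.10 TPM and POU2F2 0.05 and 0.17.

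Factors of activated and differentiating B cells were also present in GM12878. MEF2C (166 and 150 TPM), MEF2B (75.2 and 78.7), BATF (84.0 and 80.3), RUNX3 (103 and 104), ETS1 (94.3 and 91.7), NFATC1 (12.6 and 10.8) and PRDM1 (12.2 and 12.2), the plasma cell repressor, all stood at 1.55 TPM or less in HepG2. The NF-kappaB members NFKB2 (150 and 141 TPM against 20.8 and 19.2), RELB (41.3 and 42.98 against 2.75 and 2.67) and REL (20.9 and 21.1 against 1.90 and 3.27) were called with log2 differences of -2.78, -3.91 and -3.27. BHLHE41 and BACH2 were called on levels of 1.15 TPM or less. BACH2 had 2 counts in HepG2 and 31 in GM12878, a ratio of 9.42 with a 95% counting interval of 2.40 to 81.2. The exception was BCL6, the repressor of germinal centre B cells (chr3:187721377-187745725), at 28.3 and 33.0 TPM in HepG2 against 0.21 and 0.44 in GM12878 (log2 7.76 ± 0.19, edgeR adjusted p = 3.5e-14). It stood at 0.44 TPM or less in all 8 untreated GM12878 libraries. RUNX1 (log2 -1.80), ELF1 (-1.69), TCF3 (-1.85) and FOXO1 (0.39) were not called, and TCF3, the broadly expressed E protein, still stood at 76.2 and 68.4 TPM in HepG2. With the PBS libraries as the GM12878 group TCF3 passed the call at -2.02.

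Of 34 B cell surface and signalling genes, 33 were tested and 32 were called higher in GM12878, beside 18.0% of all genes. In HepG2, 21 had 0 counts. LAPTM5, a lysosomal regulator of antigen receptors, stood at 1210 and 1181 TPM against 0.13 and 0.56. FCER2 (CD23), a low-affinity IgE receptor induced by Epstein-Barr virus, stood at 805 and 793 TPM, CD48 at 442 and 444, CD53 at 442 and 433, MS4A1 (CD20) at 345 and 321 and CD37 at 275 and 285, all with 0 counts in HepG2. CD79A, the partner of CD79B, stood at 678 and 702 TPM against 0.25 and 0.79, and CD52 at 712 and 745 against 0 and 0.31. CD24 was the tested member not called (33.3 and 30.7 TPM against 17.1 and 18.98), and FCRL1 had too few counts to test. Both were named after their values were seen. CD22, another B cell marker used to check the label, stood at 136 and 136 TPM in GM12878 against 2.15 and 1.29 in HepG2.

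Antigen presentation separated by class. All 14 MHC class II genes were called higher in GM12878, beside 18.0% of all genes. HLA-DRA stood at 3771 and 3696 TPM with 0 counts in HepG2 (at least 28017-fold lower in HepG2), and HLA-DRB1, HLA-DPB1 and HLA-DQA1 at 724 to 797 TPM, also with 0 counts. HLA-DPA1 stood at 1297 and 1264 TPM, and the peptide-loading chains HLA-DMA and HLA-DMB at 316 to 326 TPM. CIITA, the master coactivator of class II, singled out after its values were seen, stood at 83.7 and 83.25 TPM against 0.14 and 0.21. CD74, the invariant chain, was not silent in HepG2: it stood at 199 and 193 TPM against 11258 and 11189 (log2 -5.89 ± 0.08). Class I genes differed less, with 13 of 19 called higher in GM12878, beside 18.0% of all genes, and a median of -3.11. B2M, the shared light chain, stood at 549 and 600 TPM against 5179 and 5366 (log2 -3.37 ± 0.07). The heavy chains were unequal: HLA-B stood at 72.1 and 61.9 TPM against 5813 and 6472 (log2 -6.77 ± 0.08), while HLA-C had a log2 difference of -3.33 and HLA-E one of -3.11. HLA genes are polymorphic and near-identical to each other, so the split of reads between them is uncertain. HLA-F was called (log2 -6.59), and CALR and PSME2, which serve other functions too, were not (0.32 and -0.47).

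Motifs of B cell factors were searched in the same way, and 2 promoters that hold them are shown. The octamer ATGCAAAT, bound by POU2F2, was found on either strand in 2 of 26 promoters of B cell surface genes (7.69%) against 1.80% of all promoters. It was also in 1 of 31 promoters of secreted protein genes (3.23%), 1 of 26 of liver metabolism (3.85%) and 0 of 17 of liver factors. The ETS motif GAGGAAG was found in 8 of 26 (30.8%) against 13.4%, and also in 3 of 23 promoters of B cell factors (13.04%) and 5 of 24 of BAF subunits (20.8%). Among class II promoters it was found in 3 of 11 (27.3%), and among those of secreted protein genes in 4 of 31 (12.9%). The palindromic EBF1 motif was found in 0 of 26 against 1.205%. The class II Y box CTGATTGG was found in 3 of 11 class II promoters in the table (27.3%) against 4.16%. It was also in 2 of 17 promoters of liver factors (11.8%) and in 0 of 26 of B cell surface genes. VPREB3, a surrogate light chain gene at 33.4 and 34.1 TPM in GM12878 with 0 counts in HepG2, held both the octamer and the ETS motif, shown in capitals (chr22:23754426-23754625, minus strand). The promoter window of VPREB3 also held the C/EBP motif searched for above, which is not marked. HLA-DMA at chr6:32953098-32953297, minus strand, held the Y box.
VPREB3: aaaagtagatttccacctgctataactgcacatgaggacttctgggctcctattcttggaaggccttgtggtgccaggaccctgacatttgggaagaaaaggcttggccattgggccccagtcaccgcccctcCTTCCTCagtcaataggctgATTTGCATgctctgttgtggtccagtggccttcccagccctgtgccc
HLA-DMA: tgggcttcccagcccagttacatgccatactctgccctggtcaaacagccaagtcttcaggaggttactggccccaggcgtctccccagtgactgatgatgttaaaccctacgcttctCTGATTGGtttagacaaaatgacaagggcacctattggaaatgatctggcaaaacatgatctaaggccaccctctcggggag

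Immunoglobulin transcripts were the most abundant of the listed genes in GM12878. All 10 genes tested were called, beside 18.0% of all genes, and 10 of the 11 listed had 0 counts in HepG2. Of the 10 tested, 9 were at 0 counts in HepG2 and reached the test only through GM12878, so their call was fixed. The alpha constant gene IGHA1 stood at 23029 and 24056 TPM and the lambda constant gene IGLC2 at 23744 and 25319, against 1428 and 1514 for IGHM, 741 and 743 for IGHG1, 1141 and 1193 for IGKC and 973 and 1029 for IGLC3. JCHAIN, which joins IgA and IgM multimers, stood at 1774 and 1723 TPM and the chaperone MZB1 at 273 and 299. Constant genes share long stretches of sequence, so levels of single members are uncertain.

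Genes of activated and virus-transformed B cells were called higher in GM12878 for 20 of 22, beside 18.0% of all genes. CCL22, a chemokine for T cells, stood at 1020 and 1001 TPM against 0.10 and 0.06, EBI3, a cytokine subunit, at 285 and 300 against 0.82 and 1.25, and CD70 at 178 and 192 with 0 counts in HepG2. The homing receptor CCR7 (176 and 178 TPM), the adaptor TRAF1 (170 and 168) and the cytokine LTA (153 and 162) stood at 0.35 TPM or less in HepG2. Feedback inhibitors of NF-kappaB were present in both lines: TNFAIP3 at 14.9 and 19.96 TPM against 178 and 166 (log2 -3.26), and NFKBIA at 92.6 and 93.1 against 281 and 287 (-1.64, not called). Lymphoid receptors were called higher in GM12878 for 23 of 26, beside 18.0% of all genes. TNFRSF17 (BCMA) led at 161 and 168 TPM, with LILRB1 (88.2 and 97.2) and TNFRSF8 (CD30, 85.6 and 90.7), all at 0 counts in HepG2. GPR183 (61.55 and 62.97 TPM) and TLR10 (43.9 and 49.03) also had 0 counts in HepG2. IL21R stood at 76.6 and 77.2 TPM against 0.57 and 0.23, and P2RY8 at 62.8 and 68.9 against 0.84 and 1.16. IFNAR2, a chain of the type I interferon receptor, was called at -2.02 and fell to -1.98 with the PBS libraries and -1.97 with the pretreatment libraries at 6 h as the GM12878 group, under 4-fold.

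All 20 genes of leukocyte motility were called higher in GM12878, beside 18.0% of all genes. LCP1, an actin-bundling plastin, stood at 1238 and 1193 TPM against 1.34 and 1.73, ARHGDIB at 876 and 861 against 0.35 and 0.48, CORO1A at 751 and 785 against 10.3 and 8.16, and RAC2 at 390 and 397 against 1.45 and 0.26. TMSB4X, which sequesters actin monomers, was the most abundant gene called in GM12878 among those annotated as protein-coding. It stood at 12712 and 12759 TPM against 21.2 and 18.4 (log2 -9.42 ± 0.10). Immunoglobulin constant genes are annotated in another class and were not ranked, and IGHA1 and IGLC2 stood higher. HCLS1 stood at 320 and 321 TPM with 0 counts in HepG2, and ITGB7 at 270 and 285 against 0 and 0.36. MYO1G stood at 182 and 186 TPM against 0.39 and 0.49, and WIPF1 at 126 and 125 against 0.38 and 0.05.

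Most BAF subunits were within 4-fold between the lines. Of 29 listed, 27 were tested, 1 was called higher in HepG2, 3 higher in GM12878 and 23 in neither. That is 4 of 27, beside 35.1% of all genes, and the median log2 difference was -0.58. The count rests on the 4-fold threshold: at 2-fold, 13 of 27 passed, beside 52.9% of all genes. The subunits higher in GM12878 then numbered 10, and 1 at 8-fold. The ATPases differed to unequal extents. SMARCA4 (chr19:10960932-11079426) stood at 81.4 and 67.1 TPM in HepG2 and 78.0 and 80.6 in GM12878 (log2 -0.36 ± 0.07, not called), and the TPM ranges overlapped. SMARCA2 (chr9:1980290-2193624) stood at 19.1 and 24.0 TPM against 257 and 244. Its fitted counts were 13.3-fold higher in GM12878 (log2 -3.73 ± 0.08, edgeR adjusted p = 4.5e-15). All 8 untreated GM12878 libraries held 230 to 280 TPM of SMARCA2. Per length, SMARCA2 was 0.234 and 0.358 of SMARCA4 in HepG2 and 3.30 and 3.02 times SMARCA4 in GM12878, so the order of the ATPases was reversed between the lines. Over the 8 untreated GM12878 libraries this ratio ran from 2.98 to 3.80.

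Subunits specific to PBAF moved in different directions. PHF10 (chr6:169703902-169725566) was called higher in HepG2, at 91.8 and 107 TPM against 15.8 and 15.7 (log2 2.23 ± 0.08), and fell just under 4-fold, at 1.99, against the pretreatment libraries at 6 h. BRD7 stood at 132 and 135 TPM against 41.2 and 38.7 (log2 1.60 ± 0.08). PBRM1, which reads acetylated histones, stood at 7.97 and 11 TPM against 29.7 and 31.1 (-1.50 ± 0.10), and ARID2, the scaffold, at 6.29 and 9.67 against 9.55 and 8.01 (-0.23 ± 0.13). The canonical BAF subunits ARID1A (24.7 and 26.3 TPM against 54.7 and 53.4) and ARID1B (23.8 and 34.1 against 50.9 and 49.1) were lower in HepG2 by log2 differences of -1.23 and -1.13, under the call. DPF2 differed by -0.30 and DPF1 by 0.09, and the sign of the DPF1 value changed with 3 alternatives. DPF3 was called on low levels (0.38 and 0.41 TPM against 1.5 and 2.59, log2 -2.23 ± 0.35), and the call was lost with each of the 3 other GM12878 groups and without HepG2 replicate 1, at -1.82 to -1.97. The ncBAF subunits BRD9, BICRA and BICRAL had log2 differences of -1.12, -1.59 and -1.11, with 31.5 to 33.7 TPM of BRD9 in GM12878 against 15.2 and 15.7 in HepG2.

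Core subunits differed little or moderately. SMARCB1 stood at 102 and 100 TPM against 186 and 183 (-0.87), SMARCC1 at 38.3 and 50.9 against 65.6 and 64.4 (-0.66), and SMARCC2 at 20.5 and 23.2 against 64.0 and 61.6 (-1.53). SMARCE1 (-0.18), SMARCD1 (-0.25), SMARCD2 (0.21), ACTL6A (0.31), BCL7A (-0.20), SS18 (-0.58), SS18L1 (0.66), BCL7B (-0.98) and BCL7C (1.23) lay within 4-fold. For SMARCE1 the fitted counts and the TPM pointed in opposite directions (135 and 156 TPM against 114 and 111), so its sign depends on the scale. SMARCD3 and ACTL6B, subunits of muscle and neuronal forms, had 8 and 2 counts in HepG2 and 4 and 0 in GM12878, and were not tested. ACTB, beta actin, which is a BAF subunit but mostly a cytoskeletal protein, was called higher in GM12878 at 11712 and 11680 TPM against 3030 and 3495 (log2 -2.20 ± 0.06), and it shares sequence with other actins and pseudogenes.

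**Figure D4:**
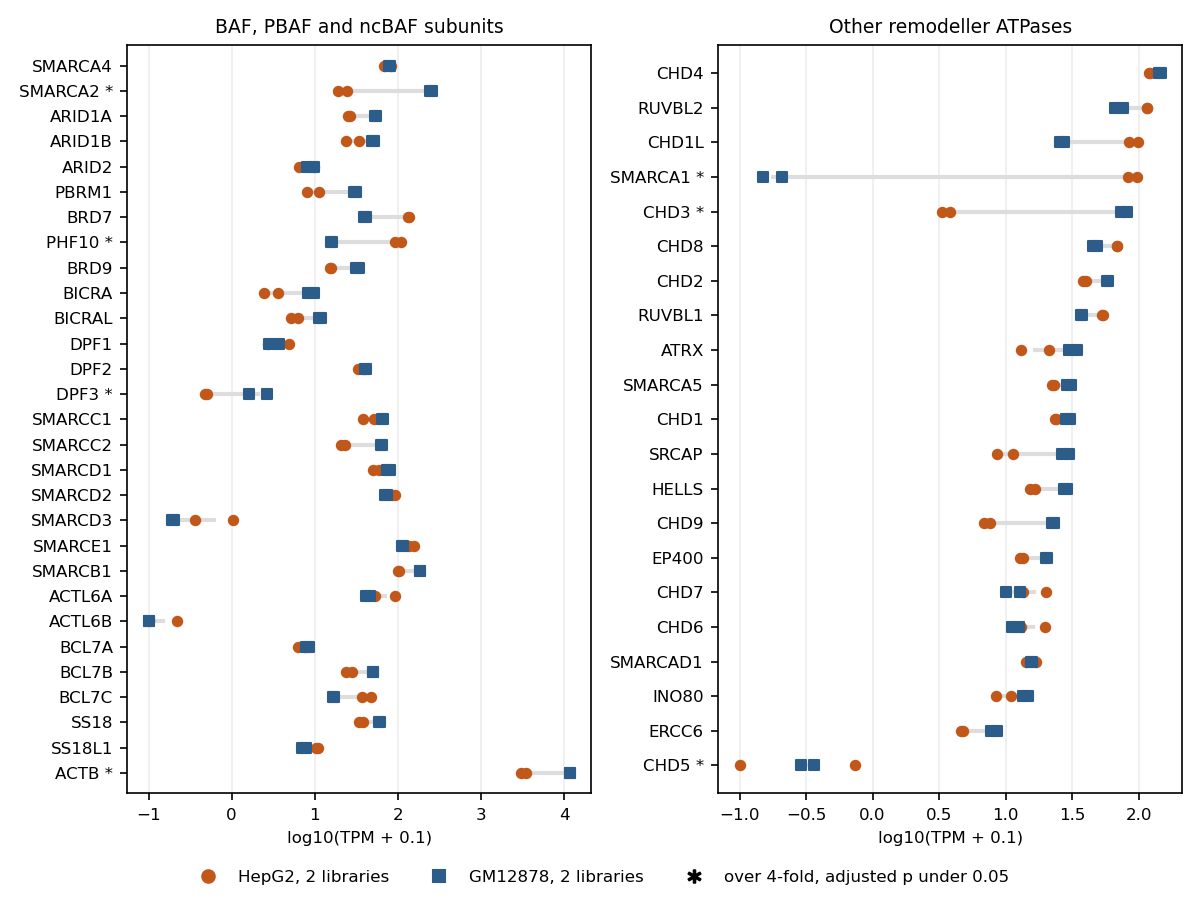
Levels of BAF, PBAF and ncBAF subunits (left) and of other remodeller ATPases (right) as log10 of TPM + 0.1 (x axis), with 2 HepG2 libraries as circles and 2 GM12878 libraries as squares; a grey line joins the means of the lines and an asterisk marks a call. SMARCA2, PHF10, SMARCA1 and CHD3 stand apart while their relatives SMARCA4, SMARCA5 and CHD4 lie close together.

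Other remodeller ATPases were called for 3 of 21, beside 35.1% of all genes, with a median of -0.54. At 2-fold 6 of 21 passed, beside 52.9%. SMARCA1 (SNF2L, an ISWI ATPase, chrX:129446501-129523500) stood at 82.7 and 97.1 TPM in HepG2 against 0.05 and 0.11 (log2 10.13 ± 0.18, edgeR adjusted p = 1.0e-15), the largest difference of any remodeller listed. Its relative SMARCA5 (SNF2H) was not called, at 22.4 and 23.2 TPM against 31.2 and 28.7 (-0.50). CHD3 (chr17:7884796-7912760), a NuRD ATPase, stood at 3.23 and 3.72 TPM against 73.5 and 81.5 (log2 -4.59 ± 0.09, edgeR adjusted p = 3.0e-15), while the other NuRD ATPase CHD4 stood at 119 and 122 TPM against 147 and 143 (-0.52). The ratio of SMARCA1 to SMARCA5 per length was 3.70 and 4.18 in HepG2 and 0.0016 and 0.0038 in GM12878, and the ratio of CHD3 to CHD4 was 0.0271 and 0.0305 in HepG2 and 0.499 and 0.572 in GM12878. RUVBL2 (0.79), RUVBL1 (0.45), CHD8 (0.16), CHD2 (-0.69) and CHD1L (1.70), which acts in DNA repair, were not called. CHD5, named after its values were seen, was called on 3 counts in HepG2 and 49 in GM12878, a ratio of 9.92 with a 95% counting interval of 3.20 to 49.8, and its TPM pointed the other way.

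Receptors and proximal signalling genes for the stimuli of the panel were called for 13 of 27 tested genes, 3 higher in HepG2 and 10 higher in GM12878, beside 35.1% of all genes. For interferon gamma, both receptor chains were present in both lines. IFNGR1 stood at 59.8 and 65.9 TPM against 100 and 95.5, and IFNGR2 at 52.0 and 51.1 against 64.7 and 56.3. The kinase JAK1 differed by -0.86, while JAK2 stood at 1.72 and 1.68 TPM against 10.7 and 9.74 (log2 -2.78 ± 0.13).

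For dexamethasone, the glucocorticoid receptor gene NR3C1 (chr5:143277931-143435512) stood at 6.56 and 9.90 TPM against 45.2 and 44.8. Its log2 difference was -2.18 ± 0.13 (edgeR adjusted p = 3.7e-08), and -1.95 without HepG2 replicate 1, under the call. NR3C2, the mineralocorticoid receptor, was called higher in HepG2 at 0.89 and 0.83 TPM against 0.02 and 0.24. The chaperones of the receptor were within 4-fold, with FKBP5 at -0.93, FKBP4 at 1.26 and HSP90AA1 at 0.45, as was the coactivator NCOA2 at -0.38.

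The TNF receptors were exchanged between the lines. TNFRSF1A, the death-domain receptor (chr12:6328757-6342114), stood at 112 and 106 TPM in HepG2 against 10.4 and 10.9 (log2 3.15 ± 0.09, edgeR adjusted p = 2.0e-13). TNFRSF1B, the receptor without a death domain (chr1:12166991-12209228), stood at 0 and 0.10 TPM against 33.9 and 35.9 (-9.19 ± 0.24, edgeR adjusted p = 5.0e-14). The ratio of TNFRSF1B to TNFRSF1A per length was at most 0.000941 in HepG2 and 3.24 and 3.28 in GM12878. The adaptors TRADD (-1.32), TRAF2 (-0.49) and RIPK1 (-0.41) were not called.

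For lipopolysaccharide, the receptor TLR4 was near 0 in both lines, at 0.11 and 0.12 TPM against 0.04 and 0, with 13 and 4 counts, and was not tested. LBP, which delivers the ligand, had 0 counts in all 4 libraries. LY96 (MD-2), the TLR4 partner, was called higher in GM12878 (3.32 and 2.03 TPM against 19.5 and 20.8, log2 -3.02 ± 0.29) and CD14, the co-receptor, higher in HepG2 (1.48 and 1.81 against 0.23 and 0.13, 2.94 ± 0.48). The adaptor MYD88 stood at 15.7 and 18.8 TPM against 56.1 and 60.8 (-1.81, not called).

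For interleukin 2, all 3 receptor chains were present in GM12878 and at or near 0 in HepG2. IL2RA stood at 9 and 8.86 TPM with 0 counts in HepG2, at least 125-fold lower there. IL2RB stood at 79.4 and 80.7 TPM against 0.03 and 0.16, a ratio of 2150 with a 95% counting interval of 736 to 10430, and IL2RG, the chain shared with other interleukin receptors, at 213 and 199 against 0.51 and 0.53 (log2 -9.63 ± 0.17). The kinase JAK3 (6.12 and 5.91 TPM against 29.9 and 30.1, -2.30) and the factor STAT5A (2.61 and 3.29 against 71.0 and 67.5, -4.60) were called, and STAT5B (23.0 and 26.3 against 52.3 and 46.5, -1.07) was not. The ratio of STAT5A to STAT5B per length was 0.114 and 0.125 in HepG2 and 1.36 and 1.45 in GM12878. The doxorubicin targets TOP2A, which rises in dividing cells, and TOP2B had log2 differences of 1.68 ± 0.09 (188 and 211 TPM against 48.5 and 47.4) and -0.14 ± 0.07.

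**Figure D5:**
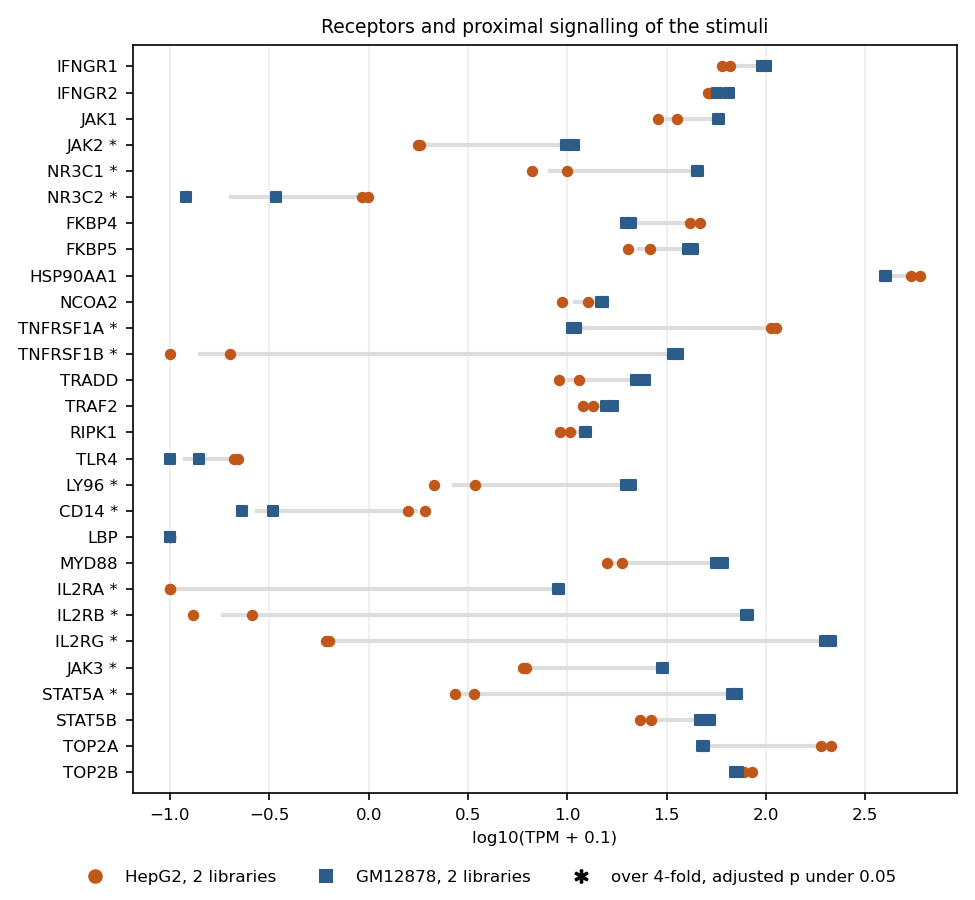
Levels of receptors and proximal signalling genes of the panel's stimuli as log10 of TPM + 0.1 (x axis), with 2 HepG2 libraries as circles and 2 GM12878 libraries as squares; a grey line joins the means of the lines and an asterisk marks a call. The interferon gamma receptor chains lie close together, the TNF receptors lie on opposite sides and the interleukin 2 receptor chains sit at or near 0 in HepG2.

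Markers of other cell types were mostly low, with exceptions on both sides. Of 8 T and NK cell markers, 5 were not tested and 3 were called higher in GM12878, beside 18.0% of all genes. TRAC, the T cell receptor alpha constant gene, stood at 108 and 105 TPM in GM12878, NKG7 at 8.43 and 9.34 and CD3E at 2.94 and 3.18, all with 0 counts in HepG2. CD3D, CD3G, CD2 and GZMA, also on the list, stood at 0.06 TPM or less in GM12878. The summed level of the list was 120 and 118 TPM in GM12878 against 2.73 and 1.46 in HepG2. Of 8 myeloid markers, 3 were tested and 2, LYZ and CD14, were called higher in HepG2, beside 17.1% of all genes. LYZ, lysozyme, stood at 2738 and 2988 TPM in HepG2 against 0.04 and 0. That is a ratio of 123021 on 1 count in GM12878, with a 95% counting interval of 22079 to 4859152. CSF1R, FCGR3A, MPO and S100A8 had 0 counts in HepG2. The summed level of the myeloid list was 2756 and 3015 TPM in HepG2 and 7.5 and 7.96 in GM12878. Of 8 biliary markers, 6 were tested. Of those, 4 were called higher in HepG2 and 1 higher in GM12878, beside 17.1% and 18.0% of all genes. KRT19, SPP1 (134 and 161 TPM), SOX9 (120 and 141) and TFF3 were higher in HepG2, and CFTR and AQP1 had 0 counts there. KRT7, a duct keratin, stood at 10.6 and 12.95 TPM in GM12878 with 0 counts in HepG2. The sum of the biliary list was 426 and 475 TPM in HepG2 against 27.5 and 29.2. Of 8 stromal markers, ACTA2 (49.7 and 40.5 TPM against 51.1 and 50.9), COL1A1 and PECAM1 were not called, and COL1A2 and LUM had 0 counts in all 4 libraries. CDH5 and COL3A1 were called in opposite directions, higher in HepG2 and in GM12878, on at most 32 counts in either line. That is 1 of 5 tested in each direction, beside 17.1% and 18.0% of all genes. The sum of the list was 57.3 and 47.9 TPM against 64.1 and 61.2. The part of other cells in these results was not tested.

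Genes often used as steady references gave no call, beside 35.1% of all genes called. All 14 were tested, with log2 differences from -1.02 (CHMP2A) to 1.19 (HPRT1) and a median of 0.11. C1orf43 stood at 172 and 184 TPM against 166 and 164, and PSMB2 at 95.6 and 91.1 against 93.1 and 93.5.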

How the data were processed

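Poly(A)-selected RNA was read on Illumina NovaSeq from strand-marked libraries, per the labels' protocols. STAR, RSEM and hg38 are listed, per the submitters' processing notes. Their versions, the annotation release and the strand setting of the counting are not given in the sources used here. Antisense and overlapping genes are uncertain. The deposited expected counts, estimated by RSEM per the file headers, were rounded. The deposited TPM values, per the file headers, give levels. Each table held 59526 identifiers, of which 58780 were Ensembl genes and 746, with 0 counts, were left out; 58207 had a symbol in GENCODE 44.

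Counts were fitted in edgeR 4.0.16 (R 4.3.3) with TMM, filterByExpr, robust quasi-likelihood dispersion and only the libraries compared (2 residual degrees of freedom), 2-sided. Standard errors are the log2 difference over the square root of F. DESeq2 1.42.0 was an alternative. Replicates differed beyond sampling noise (chi-square per degree of freedom of 2.52 or more). Calculations were tested on simulated data. Bounds use 3 counts over a group, and exact 95% intervals cover counting error only.

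Members, motifs and the 22 lists (463 genes, 423 tested) were chosen with earlier results of these data known. The genes named are ALB, CD79B, all members of the BAF, stimulus, liver and B cell factor lists, and the 10 most abundant called protein-coding genes per direction. Up to 8 of the most abundant per other list are also named, with every member called against its list. Others are said to be chosen later, serve as a marker of the label or are shown for their promoter. Some of these genes are not reported here by name, nor drawn in plots by gene, but are counted in their lists. Other scalings, filters, tests, folds, GM12878 groups and left-out libraries were tried.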

Additional observations from a re-analysis of the deposited data

How the results depend on the processing

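Of 310 list genes called, between 287 (8-fold threshold) and 310 gave the same call under each alternative, and 0 changed sign. Leaving out a library gave 2491 to 2827 genes higher in HepG2 and 2820 to 3196 higher in GM12878. Requiring only 2-fold gave 4316 higher in GM12878. Without a filter the median of all genes moved by -0.27 on the log2 scale, from -0.07 to -0.34. Among genes near 0, the sign changed for ACTA2 (0.050) and ARID2 (0.00083) with the pretreatment libraries at 6 h, and for DPF1 with PBS (-0.11), with those pretreatment libraries (-0.021) and without HepG2 replicate 1. Leaving out each library gave -0.0058 to 0.24 for DPF1.

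Between the GM12878 experiments DESeq2 called 1 and 2 genes, and a 2-fold threshold gave 89 higher in the panel and 24 lower. Leaving out a library, an alternative chosen after seeing the data, gave 2 to 80 and 9 to 22 genes between experiments, and 0 to 21 higher at 6 h and 1 to 39 higher at 1 h. With a single library left in a group, that library is assumed to vary like the other group.

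Replicate numbers did not pair the libraries: same-numbered deviations correlated at -0.026 between the lines, -0.020 between the experiments and -0.0072 between the times. With a replicate block the counts were 2684 higher in HepG2 and 2822 higher in GM12878, 17 and 15 between the experiments, and 6 at 6 h and 5 at 1 h between the times.

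Depth limits genes at few counts: 0 counts over the group allows up to 3.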
